A study of Mus musculus with 11 samples.

Results

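The genes described here are 10 markers of endothelial cells, the lining of blood vessels, measured in whole mouse pancreas: Kdr, Flt1, Tek, Tie1, Pecam1, Cdh5, Jcad, Emcn, Plvap and Cd34. They were chosen with earlier results of these data known. Every probe set annotated to one of them alone was used, which gave 15 of the 45037 probe sets tested and 10 of the 18193 genes with a probe set of their own. The study asked how a shortage of protein before birth and an injury to beta cells just after birth, alone or together, alter the pancreas of young mice. RNA of whole pancreas from female Balb/C mice at 30 days of age was hybridised to 11 Affymetrix arrays, 1 array a sample, with values deposited on a log2 scale.

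Dams ate a diet with 20% protein (control) or an isocaloric diet with 8% protein (low protein) through gestation, and every dam ate the control diet from birth. Offspring received streptozotocin (STZ), a toxin taken up by beta cells, at 35 mg/kg, or vehicle (sham), on each of days 1 to 5 of life. The 4 groups were control sham with 3 arrays, control STZ with 2 arrays (replicates 1 and 3), low protein sham with 3 arrays and low protein STZ with 3 arrays. The labels call the arrays biological replicates and do not name dams or litters, so diet and litter cannot be told apart and p-values measure the spread between these samples. Array medians lay between 7.91 and 7.97 and the correlation of arrays between 0.9827 and 0.9946 within groups and between 0.9778 and 0.9944 across groups. No array was identical to another.

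Endothelial cells line every vessel, and in the pancreas they form a dense capillary bed that is richest and most fenestrated inside the islets. Growth and survival of these cells are driven by vascular endothelial growth factor (VEGF), which islet cells make in large amounts and which binds Kdr (VEGF receptor 2, the main signalling receptor) and Flt1 (VEGF receptor 1, which binds VEGF tightly and is also made in a soluble form that holds it back). Angiopoietins act on Tek (Tie2) to keep vessels quiet and stable, and Tie1 is a related receptor that modulates Tek. Cdh5 (VE-cadherin) and Pecam1 (CD31) hold endothelial cells to each other, and Jcad lies at the same junctions. Emcn (endomucin) is a sialomucin of capillary and venous endothelium, Plvap forms the diaphragms of fenestrae and caveolae, and Cd34 is a surface sialomucin of capillaries that blood progenitors and some fibroblasts also carry.

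Endothelial genes are controlled in large part by factors of the ETS family, whose binding core is GGAA. The 250 bases before the start, from RefSeq (GRCm38.p6), were searched for 6 of the 10 genes (Cd34, Emcn, Tek, Tie1, Kdr and Flt1). Jcad lies on a chromosome that was left out, so its promoter was not searched. The promoters of Kdr (chr5:75978456-75978705, minus strand), Emcn (chr3:137340828-137341077, plus strand) and Cd34 (chr1:194938571-194938820, plus strand) are shown because the sham groups of both diets did not overlap for these 3 genes and because their windows differ in base composition, with GC contents of 61.6%, 40.8% and 46.4%. The sham groups did not overlap for Flt1 and Tie1 either, whose windows (GC contents of 70.4% and 60.4%) are not shown. The 3 windows shown run 5′ to 3′ on the gene's strand, with GGAA and its reverse complement TTCC in capitals.
Kdr: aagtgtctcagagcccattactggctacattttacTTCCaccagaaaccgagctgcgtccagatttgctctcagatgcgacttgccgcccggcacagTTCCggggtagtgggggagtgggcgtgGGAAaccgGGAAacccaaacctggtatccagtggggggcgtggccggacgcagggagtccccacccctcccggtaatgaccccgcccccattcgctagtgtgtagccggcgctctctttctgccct
Emcn: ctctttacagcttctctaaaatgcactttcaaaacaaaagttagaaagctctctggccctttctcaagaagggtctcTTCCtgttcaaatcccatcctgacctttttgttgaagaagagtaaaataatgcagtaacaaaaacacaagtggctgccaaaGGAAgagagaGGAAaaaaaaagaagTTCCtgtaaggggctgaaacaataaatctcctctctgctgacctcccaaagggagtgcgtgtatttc
Cd34: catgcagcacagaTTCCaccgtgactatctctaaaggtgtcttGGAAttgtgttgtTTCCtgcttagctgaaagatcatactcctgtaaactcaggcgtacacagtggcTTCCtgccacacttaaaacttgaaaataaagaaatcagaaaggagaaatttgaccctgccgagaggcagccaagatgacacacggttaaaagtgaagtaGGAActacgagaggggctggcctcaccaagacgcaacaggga

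Searched on both strands, GGAA occurred 4 times in the window of Kdr, 4 times in that of Emcn and 5 times in that of Cd34. It was present in 6 of the 6 members searched, beside 93.4% of the 32851 promoters of the table, so its presence does not set the markers apart. The longer ETS consensus CCGGAAGT, which contains GGAA, was in 0 of 6 (2.88% of all promoters), and AGATAA, which factors of the GATA family bind, was also in 0 of 6 (9.99% of all). GGGCGG, the Sp1 box, was in 2 of 6, Kdr and Flt1 (32.7% of all), and TATAAA was in 1 of 6, Flt1 (12.4% of all). These are matches of letters in a window and not sites of binding.

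Across the 4 groups the markers had lower means in offspring of low protein dams, in 10 of 10 members in the sham groups (55.9% of all genes) and 9 of 10 in the STZ groups (59.8% of all genes). The medians of the 10 differences, taken with 1 probe set a gene (the one with the highest mean over all arrays), were -0.28 for diet in the sham groups and -0.14 for diet in the STZ groups. For STZ they were -0.04 after the control diet and 0.06 after the low protein diet, and with 1 array left out they ran from -0.0943 (without control sham replicate 1) to -0.000195 (without control STZ replicate 3) and from 0.00733 (without low protein sham replicate 2) to 0.0875 (without low protein sham replicate 1). No member passed the test: with limma's moderated test and Benjamini-Hochberg adjustment over all 45037 probe sets at 0.05, 0 members were called in each of the comparisons made, and the share of all probe sets called was 0% in each. At an unadjusted p under 0.05 the same limma fits held between 1113 and 5723 of the 45037 probe sets. The differences of single members below therefore missed the threshold, and they are given as values with standard errors of the fit. Of the 15 probe sets, 14 had a mean over 6.865, the 0.25 quantile of all probe set means, taken here as the limit for dim signals. In whole pancreas, fewer endothelial cells and less of each RNA per endothelial cell cannot be told apart.

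**Figure D1:**
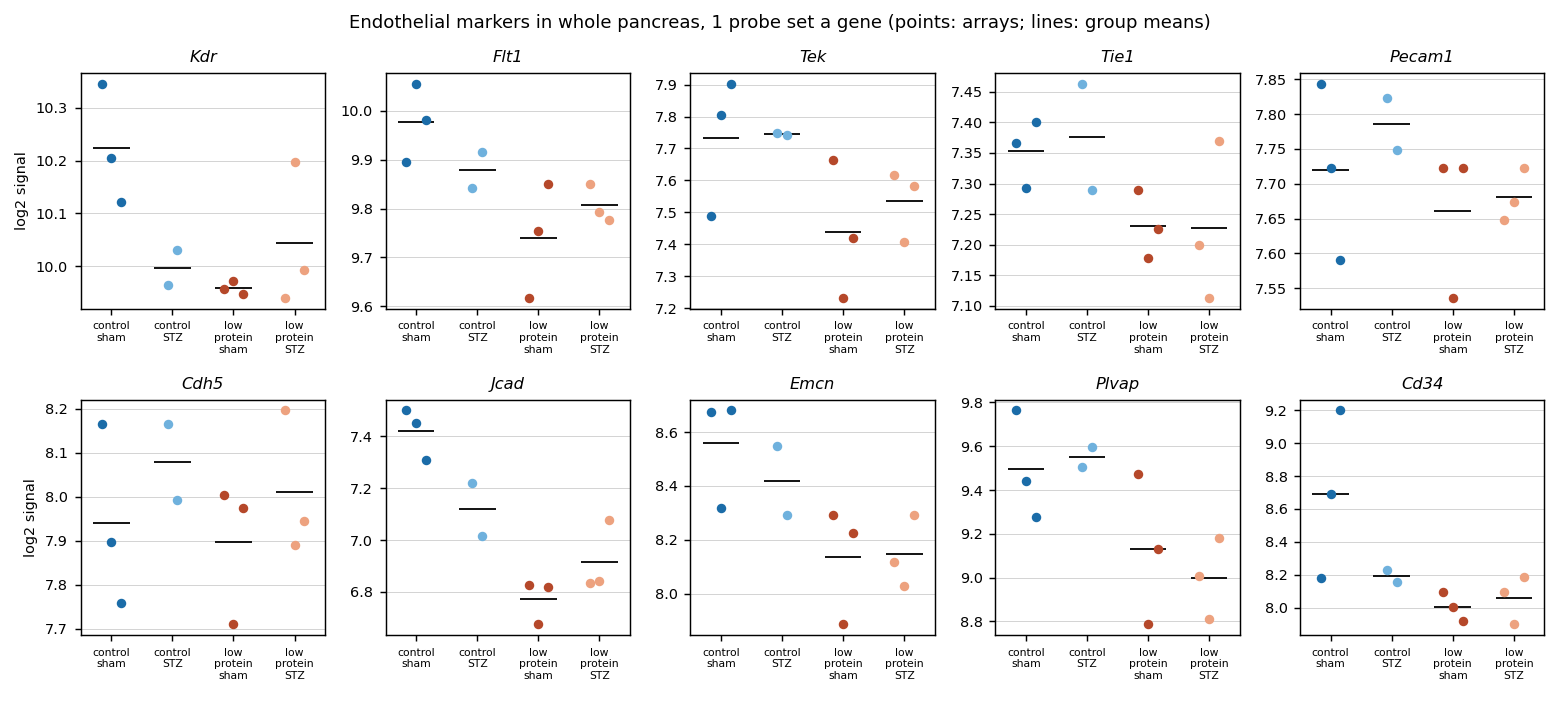
Log2 signal of the 10 endothelial markers (vertical axis, 1 probe set a gene) on each of the 11 arrays, by group (horizontal axis); points are arrays and lines are group means. The low protein sham points lie below all control sham points for Cd34, Jcad, Emcn, Kdr, Flt1 and Tie1, while the groups overlap for Plvap, Tek, Pecam1 and Cdh5.

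Of the receptors for VEGF, Kdr read 10.35, 10.21 and 10.12 on the control sham arrays, 9.96 and 10.03 on the control STZ arrays, 9.96, 9.97 and 9.95 on the low protein sham arrays and 9.94, 10.20 and 9.99 on the low protein STZ arrays. Each control sham array was above each low protein sham array and each control STZ array, while low protein STZ replicate 2 reached the control sham range. The Kdr difference for diet was -0.27 ± 0.08 in the sham groups (n = 3 and 3, limma adjusted p = 0.344) and 0.05 ± 0.09 in the STZ groups.

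Flt1, by its brightest probe set 1451756_at, read 9.89, 10.05 and 9.98 in control sham, 9.84 and 9.92 in control STZ, 9.62, 9.75 and 9.85 in low protein sham and 9.85, 9.79 and 9.78 in low protein STZ. All 6 low protein arrays were below all 3 control sham arrays, and the control STZ arrays overlapped both. Its difference for diet was -0.24 ± 0.08 in the sham groups (limma adjusted p = 0.358) and -0.07 ± 0.08 in the STZ groups. Relative to control sham, the low protein sham mean was 1.20-fold lower for Kdr and 1.18-fold lower for Flt1.

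Among the angiopoietin receptors, Tek read 7.49, 7.81 and 7.90 in control sham, 7.75 and 7.74 in control STZ, 7.67, 7.23 and 7.42 in low protein sham and 7.62, 7.41 and 7.58 in low protein STZ. Control sham replicate 1 stood within the low protein range, so the sham groups overlapped, and the diet differences of -0.29 ± 0.13 (sham, limma adjusted p = 0.528) and -0.21 ± 0.14 (STZ) were close to the spread between arrays. Tie1 read 7.37, 7.29 and 7.40 in control sham, 7.46 and 7.29 in control STZ, 7.29, 7.18 and 7.22 in low protein sham and 7.20, 7.11 and 7.37 in low protein STZ. The Tie1 sham groups did not overlap but nearly touched, with a diet difference of -0.12 ± 0.08.

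Among the junction proteins, Pecam1 and Cdh5 differed between the diets by less than their standard errors in the sham groups, and Jcad by several. Pecam1 lay between 7.59 and 7.84 in control sham, 7.75 and 7.82 in control STZ, 7.54 and 7.72 in low protein sham, and 7.65 and 7.72 in low protein STZ. The deposited Pecam1 value 7.723 appeared on 4 arrays. Cdh5, by probe set 1433956_at, read 8.17, 7.90 and 7.76 in control sham, 8.17 and 7.99 in control STZ, 8.00, 7.71 and 7.97 in low protein sham and 8.20, 7.89 and 7.95 in low protein STZ. In the sham groups the diet differences were -0.06 ± 0.08 for Pecam1 and -0.04 ± 0.13 for Cdh5, and the sham arrays of both diets were intermixed.

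Jcad, by probe set 1428535_at, read 7.50, 7.45 and 7.31 in control sham, 7.22 and 7.02 in control STZ, 6.83, 6.68 and 6.82 in low protein sham and 6.83, 6.84 and 7.08 in low protein STZ. Control sham stood above each of the other 3 groups without overlap, and low protein sham stood lowest. The measured low protein sham mean differed from that of control sham by -0.65 ± 0.09 (limma adjusted p = 0.259, the lowest value in that comparison, which other probe sets shared). Averaged over both injections the diet difference was -0.42 ± 0.07 (limma adjusted p = 0.074), and between low protein STZ and control sham it was -0.50 ± 0.09 (limma adjusted p = 0.0755).

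The call on Jcad changed when single arrays were left out. Without low protein STZ replicate 1, which is in neither sham group, limma gave the sham diet difference an adjusted p of 0.021, with 263 of all probe sets then called. For diet over both injections the limma adjusted p was 0.0474 without that array, with 310 of all probe sets called. Without low protein STZ replicate 3 it was 0.0389, with 480 called. Between low protein STZ and control sham it was 0.0327 without low protein STZ replicate 3, with 806 called. With array weights both of the latter comparisons called Jcad (limma adjusted p = 0.041 and 0.0405), among 520 and 612 probe sets called. This probe set was dim: it exceeded the limit of 6.865 on 6 of 11 arrays, and all 3 low protein sham arrays and low protein STZ replicates 1 and 2 were under it, so no fold is given for Jcad.

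Of the capillary and surface markers, Emcn read 8.67, 8.32 and 8.68 in control sham, 8.55 and 8.29 in control STZ, 8.29, 7.89 and 8.23 in low protein sham and 8.12, 8.03 and 8.29 in low protein STZ. Every low protein array was below every control sham array, and only control STZ replicate 3 came down to the top of the low protein range. Emcn was 1.34-fold lower in low protein sham than in control sham (-0.42 ± 0.14, limma adjusted p = 0.367), and in the STZ groups the difference was -0.27 ± 0.15.

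Plvap read 9.76, 9.44 and 9.28 in control sham, 9.51 and 9.60 in control STZ, 9.47, 8.79 and 9.13 in low protein sham and 9.01, 8.81 and 9.18 in low protein STZ. The sham groups overlapped because low protein sham replicate 1 was within the control range, while the STZ groups did not overlap. Its diet difference was -0.36 ± 0.17 in the sham groups (limma adjusted p = 0.571) and -0.55 ± 0.19 in the STZ groups (limma adjusted p = 0.543). Without low protein sham replicate 2 the sham difference was -0.19, and without low protein sham replicate 1 it was -0.54.

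Cd34 read 8.18, 8.69 and 9.20 in control sham, 8.23 and 8.15 in control STZ, 8.10, 8.00 and 7.92 in low protein sham and 8.10, 7.90 and 8.19 in low protein STZ. The control sham arrays were spread over more than 1 log2 unit (SD 0.51), against SDs of 0.05 to 0.15 in the other groups, and the lowest of them was only just above the low protein sham arrays. The diet difference in the sham groups was -0.68 ± 0.20 (limma adjusted p = 0.307). It was -0.43 without control sham replicate 3 and -0.94 without control sham replicate 1.

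Cd34 is not specific to endothelium, and genes of connective tissue differed among the same arrays. The mean of 16 stromal genes, centred over all arrays, was -0.09, 0.22 and 0.61 on control sham replicates 1, 2 and 3, the order in which Cd34 stood on the same arrays. The part of stromal cells in the Cd34 values was not tested.

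**Figure D2:**
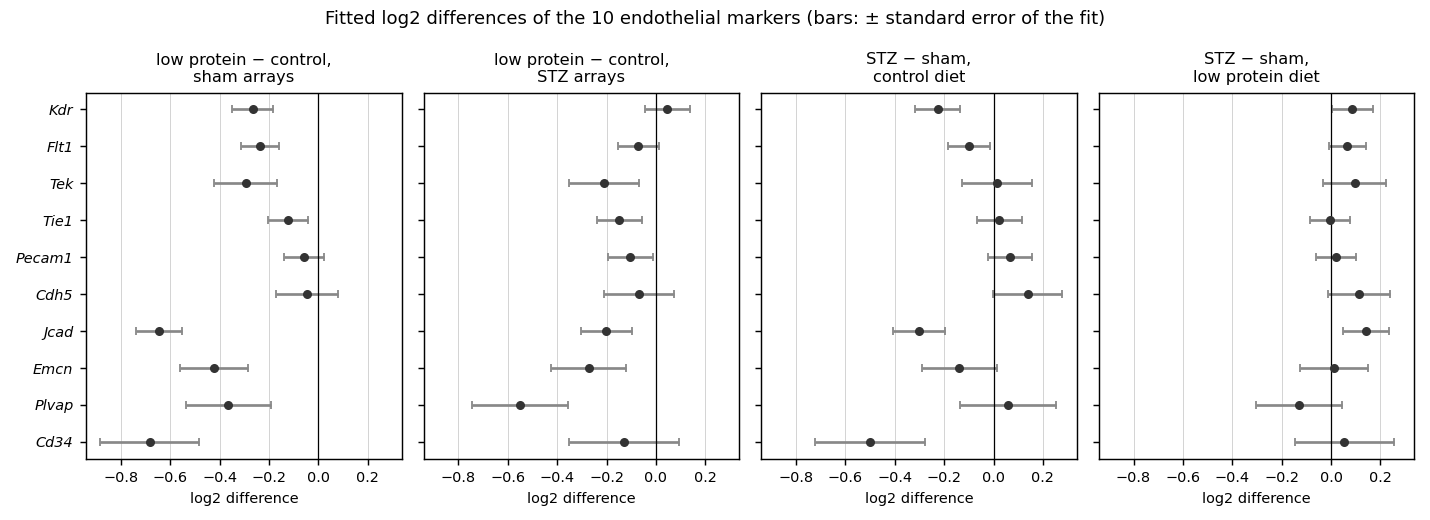
Fitted log2 differences (horizontal axis) of the 10 markers in the comparisons of diet and of STZ, with bars of ± 1 standard error of the fit. Jcad, at -0.65 ± 0.09, is the farthest from 0 relative to its error for diet in the sham groups, and the STZ differences after the low protein diet gather near 0.

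The sham groups compared the maternal diets without STZ, where diet and litter cannot be told apart. Of the 10 members, 10 had a lower mean after the low protein diet, beside 55.9% of all genes, for which the median difference was -0.02. At an unadjusted p under 0.05, 6 of 10 were lower (Jcad, Cd34, Kdr, Flt1, Emcn and Tek) and 0 higher, beside 6.91% of all genes lower. The sham groups did not overlap for 6 of 10 (Jcad, Cd34, Kdr, Flt1, Emcn and Tie1, low protein lower), beside 9.4% of all genes. As the members were chosen with earlier results of these data known, the shares are a description and not a test.

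Technical measures of the arrays differed between the diets as well. The bacterial and phage hybridisation controls (18 probe sets) averaged 11.34 to 11.89 in control sham, 11.56 to 11.81 in control STZ, 11.20 to 11.50 in low protein sham and 10.88 to 11.40 in low protein STZ. The labelling controls (24 probe sets) averaged 9.51 to 9.82, 9.30 to 9.56, 9.05 to 9.26 and 8.62 to 8.95 in the same order, so the diets did not overlap in them. The SD over all probe sets of an array was 1.60 to 1.67, 1.62 to 1.64, 1.58 to 1.60 and 1.52 to 1.62 in that order. With quantile normalization 4 of 10 members had an unadjusted p under 0.05 in the sham groups, and with cyclic loess 5 of 10, against 6 of 10 as deposited. With the hybridisation controls as a covariate, chosen after the data were seen, the median of the members in the sham groups was -0.26 and 3 of 10 had an unadjusted p under 0.05. With the labelling controls it was -0.25 and 4 of 10. As the labelling controls did not overlap between the diets, the refit with them cannot tell diet and labelling signal apart. The part of the technical measures in the values was not tested.

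Among offspring given STZ in both groups, 9 of 10 members were lower after the low protein diet, beside 59.8% of all genes, and Kdr was the exception. Plvap alone had an unadjusted p under 0.05 in the lower direction, 1 of 10 beside 7.23% of all genes. It did not without low protein STZ replicate 2, while without low protein STZ replicate 3 there were 3 such members. Plvap, Tek and Pecam1 had groups that did not overlap, 3 of 10 beside 15.5% of all genes. Control STZ had 2 arrays, and nothing about the markers is read from these shares.

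Averaged over both injections, 10 of 10 members were lower after the low protein diet, beside 59.5% of all genes. At an unadjusted p under 0.05, 7 of 10 were lower (Jcad, Plvap, Emcn, Flt1, Cd34, Tek and Tie1), beside 10.8% of all genes. Plvap differed by -0.46 ± 0.13 (limma adjusted p = 0.187) and Emcn by -0.35 ± 0.10 (limma adjusted p = 0.198), both in the same direction in each injection group. Without control STZ replicate 1 the count was 4, with the hybridisation controls as a covariate it was 2, and with the labelling controls it was 3. Quantile normalization and cyclic loess each gave a count of 5.

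The mean over the 10 members, each centred on its own mean, separated the diets array by array. It was 0.19, 0.15 and 0.19 on the control sham arrays, 0.12 and 0.04 on the control STZ arrays, -0.04, -0.26 and -0.11 on the low protein sham arrays and -0.08, -0.17 and -0.02 on the low protein STZ arrays. All 6 low protein arrays were below all 5 control arrays, although for 0 of 10 single members did all low protein arrays lie below all control arrays. The closest arrays of the 2 diets stood at 0.04 and -0.02, beside a pooled SD between replicates of 0.0755. This separation was not particular to the markers. The means of the acinar list, of other endothelial genes and of endothelial transcription factors, lists described below, separated the diets array by array as well. In the acinar list the lowest control array was at 0.15 and the highest low protein array at 0.05. Low protein sham replicate 2 was the lowest of the 11 arrays for 6 of 10 members, and without it the sham diet comparison had 8 of 10 members lower, with 4 at an unadjusted p under 0.05. By group, the highest mean was that of control sham for 5 members and of control STZ for the other 5, and the lowest was that of low protein sham for 8 and of low protein STZ for 2. The counts of members in this paragraph have no share of all genes beside them, so nothing about the markers is read from them.

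**Figure D3:**
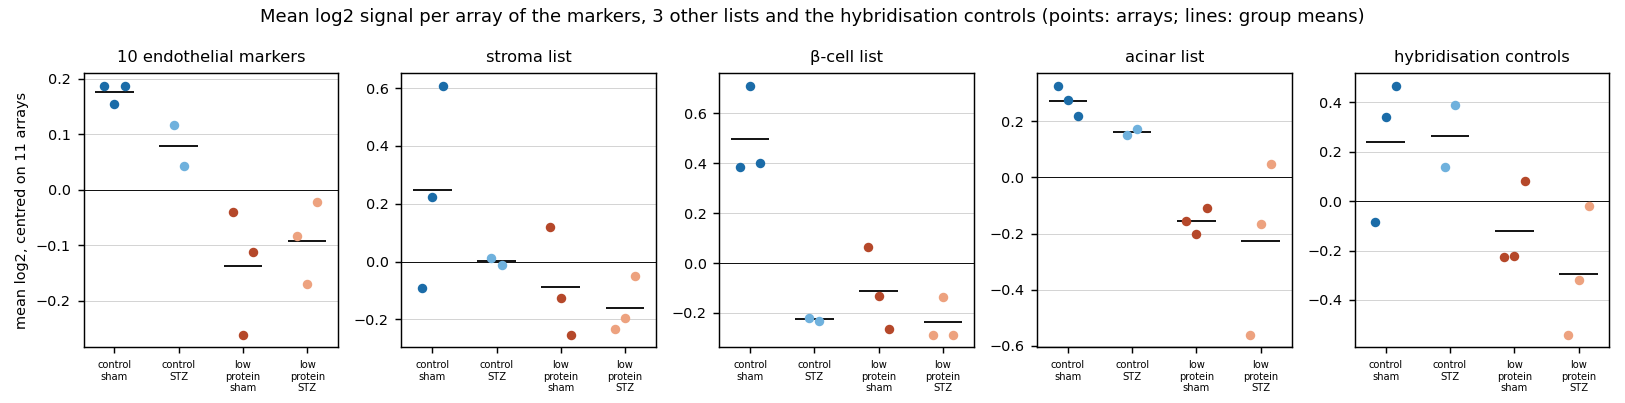
Mean log2 signal of each array (vertical axis, centred over the 11 arrays) for the 10 markers, for other gene lists and for the hybridisation controls, by group (horizontal axis); points are arrays and lines are group means. The 6 low protein arrays lie below the 5 control arrays for the markers and for the acinar list. The hybridisation controls are also lower on average after the low protein diet.

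The sham and STZ groups within a diet addressed what the beta cell toxin did. After the control diet 5 members were lower and 5 higher in STZ than in sham offspring, beside 48.9% and 51.1% of all genes. Cd34 (-0.50 ± 0.22), Jcad (-0.30 ± 0.10) and Kdr (-0.23 ± 0.09) had an unadjusted p under 0.05, 3 of 10 beside 2.25% of all genes lower, and limma's adjusted p was 1 for each. Jcad and Kdr had groups that did not overlap, 2 of 10 beside 7.73% of all genes. The count of 3 became 0 without control STZ replicate 3, and 1 without control STZ replicate 1 or without control sham replicate 2. Without control sham replicate 3 the Cd34 difference was -0.24 and without control sham replicate 1 it was -0.75, and without control STZ replicate 3 the Jcad difference was -0.20. In the same comparison Ins2, the main insulin gene of the mouse, differed by -1.72 ± 0.31, also with limma's adjusted p at 1.

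After the low protein diet, 8 of 10 members were higher in STZ than in sham offspring, beside 44% of all genes. The 10 differences lay between -0.13 ± 0.17 (Plvap) and 0.14 ± 0.09 (Jcad). An unadjusted p under 0.05 was reached by 0 of 10, beside 0.868% of all genes higher and 1.96% lower. Jcad was the 1 member whose groups did not overlap in the higher direction, beside 2.83% of all genes, by a gap between 6.829 and 6.834 on the log2 scale. Averaged over both diets the median STZ difference of the members was -0.03, and without low protein sham replicate 1 it was 0.000162.

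The test of whether the STZ difference itself depended on diet gave an unadjusted p under 0.05 for 2 of 10 members, both in the higher direction, beside 1.46% of all genes. For Jcad the STZ difference after the low protein diet exceeded that after the control diet by 0.44 ± 0.14 (limma adjusted p = 1), and for Kdr by 0.31 ± 0.12 (limma adjusted p = 1). Both genes were lower in STZ than in sham offspring after the control diet and not lower after the low protein diet, where the sham group had the lowest of the 4 group means. Cd34 gave 0.55 ± 0.30, and the other 7 members lay between -0.19 and 0.17. The second Jcad probe set, 1438263_at, under the dim limit on every array, gave -0.14 ± 0.13.

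Offspring with both exposures were set against those with neither. Low protein STZ was lower than control sham for 9 of 10 members, beside 57.4% of all genes. At an unadjusted p under 0.05, 5 of 10 were lower (Jcad, Cd34, Emcn, Plvap and Flt1), beside 11.2% of all genes. The groups did not overlap for 4 of 10 (Jcad, Plvap, Emcn and Flt1), beside 10.2% of all genes. With the hybridisation or the labelling controls as a covariate the count of 5 was 2. Plvap differed by -0.49 ± 0.17, Emcn by -0.41 ± 0.14 and Cd34 by -0.63 ± 0.20. Cd34 was -0.37 without control sham replicate 3 and -0.885 without control sham replicate 1. These comparisons share the control sham arrays, so they are not independent of each other. Tested for any difference among the 4 groups, 5 of 10 members (Jcad, Cd34, Emcn, Plvap and Kdr) had an unadjusted p under 0.05, beside 9.78% of all genes, and the smallest adjusted p of a member was 0.251 for Jcad.

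Where a gene had several probe sets they did not move together. Of the 4 Flt1 probe sets, 1451756_at, 1440926_at and 1419300_at were lower after the low protein diet in the sham groups, by -0.24 ± 0.08, -0.15 ± 0.07 and -0.12 ± 0.09, and 1454037_a_at was higher, by 0.13 ± 0.08. Flt1 makes full-length and soluble forms, and the files do not say which form each probe set reads. The second Jcad probe set, 1438263_at, was under the dim limit on every array and gave 0.12 ± 0.09, the opposite direction, so that the mean of both Jcad probe sets differed by -0.26. The second Cdh5 probe set, 1422047_at, gave 0.08 ± 0.09.

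**Figure D4:**
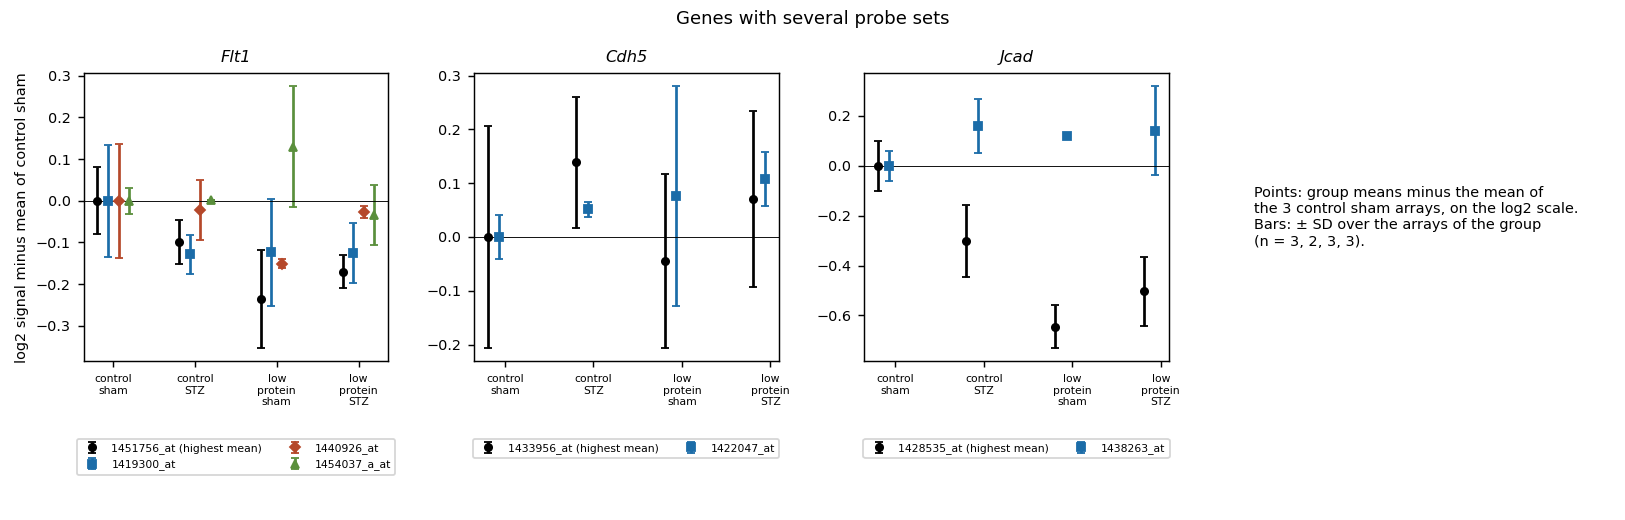
Log2 signal relative to the control sham mean (vertical axis) of each probe set of Flt1, Cdh5 and Jcad, by group (horizontal axis); points are group means with bars of ± 1 SD over arrays. The brightest probe set of Jcad lies below 0 in both low protein groups while the other, dimmer one does not, and 1 of the 4 Flt1 probe sets is above 0 in low protein sham.

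Each member was set beside the mean of the other 9 over the 11 arrays as a description of how far the markers varied together. The correlation was highest for Jcad (Pearson's r = 0.905) and Emcn (0.896), then Tie1 (0.778), Plvap (0.734) and Tek (0.725). It was lower for Flt1 (0.581), Cd34 (0.54), Pecam1 (0.497), Kdr (0.429) and Cdh5 (0.194). By Spearman's rho Cd34 (0.827) stood beside Tie1 (0.829) and above Plvap and Tek (0.718 each). These points share arrays, groups and the normalisation. Over 15891 genes above the dim limit, those whose signal was most like the mean of the members were Vhl (r = 0.938), which targets the hypoxia-inducible factors for breakdown, Rgs5 (0.932), a pericyte marker, Tm4sf1 (0.931), a surface protein abundant in endothelium, Tpm4 (0.927), Khdc4 (0.922), Igfbp7 (0.912), which endothelium secretes, Cav2 (0.9), a caveolar protein, and Wwtr1 (0.897), a transcriptional coactivator.

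Other endothelial genes were looked at from a list of 29 measured genes. After the low protein diet 23 were lower and 6 higher in the sham groups, beside 55.9% of all genes lower, with a median of -0.08. At an unadjusted p under 0.05, 7 were lower and 1 higher, beside 6.91% and 3.48% of all genes, and 0 passed the adjusted threshold. Cav1, the coat protein of caveolae, differed by -0.76 ± 0.17, Aqp1, a water channel of capillaries, by -0.61 ± 0.12, and Ptprb, a phosphatase that acts on Tek, by -0.45 ± 0.11. Acvrl1, a receptor for bone morphogenetic proteins, went the other way at 0.35 ± 0.08 (limma adjusted p = 0.259 for each of the 4). The median of the 10 markers was thus -0.28 and that of the wider list -0.08, beside -0.02 over all genes. Both lists were chosen with earlier results of these data known.

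Upstream of the receptors, 7 of 10 ligands and co-receptors were lower in the same comparison, near the 55.9% of all genes, with a median of -0.05. At an unadjusted p under 0.05, 2 of 10 were lower, beside 6.91% of all genes. These were Angpt1, the agonist of Tek, at -0.39 ± 0.10 and Nrp1, a VEGF co-receptor, at -0.64 ± 0.25. Of 15 endothelial transcription factors 12 were lower, beside 55.9% of all genes, with a median of -0.08. Gata2 (-0.27 ± 0.08), Ets1 (-0.51 ± 0.17) and Epas1 (-0.64 ± 0.22) led them, the last a hypoxia-inducible factor of endothelium. Notch and related vessel genes (7 measured) had a median of -0.01 and lymphatic markers (4 measured) one of 0.12.

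Mural cells, the pericytes and smooth muscle around vessels, gave no common direction, with 6 of 12 genes lower, 6 higher and a median of 0.01. Rgs5 stood apart from the other 11 mural genes at -0.61 ± 0.15 in the sham groups and -0.62 ± 0.17 in the STZ groups. Averaged over injections it was -0.62 ± 0.11 (limma adjusted p = 0.074).

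Genes of other pancreatic cell types were lower as well after the low protein diet, and their part in the values of the endothelial markers was not tested. Of all genes, 55.9% were lower in the sham groups. In the sham groups 16 of 16 stromal genes were lower (median -0.21), led by Bgn (-0.50 ± 0.12), Vim (-0.93 ± 0.25) and Col3a1 (-0.85 ± 0.28). The mean of the stromal genes ranged from 9.73 to 10.43 in control sham, 9.81 to 9.83 in control STZ, 9.57 to 9.94 in low protein sham and 9.59 to 9.77 in low protein STZ. All 10 measured genes of the acinar list were lower (median -0.40), with means of 14.89 to 15.00 in control sham, 14.82 to 14.85 in control STZ, 14.47 to 14.57 in low protein sham and 14.11 to 14.72 in low protein STZ. Of 11 beta cell genes 10 were lower (median -0.33), and of 8 genes of other islet cells 6 (median -0.45). The medians of the duct (0.00), red cell and platelet (-0.03), leukocyte (0.06), blood progenitor (0.00) and adipocyte (-0.05) lists were near that of all genes. In this comparison 0 genes of these lists passed the adjusted threshold.

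**Figure D5:**
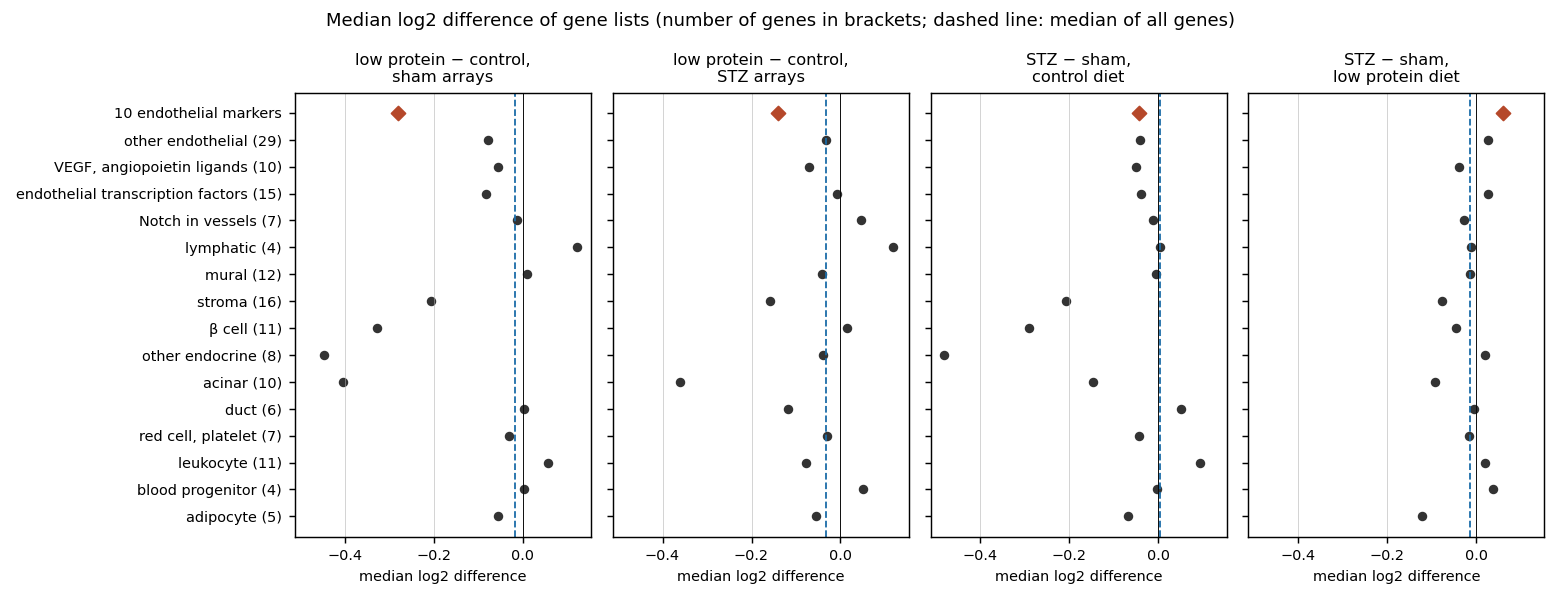
Median log2 difference (horizontal axis) of the 10 endothelial markers and of the other gene lists (vertical axis, with the number of genes measured in brackets); the dashed line is the median of all genes. For diet in the sham groups the markers lie at -0.28, with the stromal, beta cell, other islet and acinar lists also below -0.2 and the wider endothelial list at -0.08.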

How the data were processed

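Total RNA of whole pancreas was hybridised to 11 mouse expression arrays (4 groups, labelled as biological replicates). The authors deposited 1 log2 signal per probe set and array, with RMA and Partek 6.5 named in the submitters' processing notes without roles; no build or test of the authors is named there. Hybridisation dates and raw scanner signals were not used here.

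From these values, 64 control probe sets were left out of 45101, and limma 3.58.1 (R 4.3.3) was run on the other 45037 with 4 group means, no covariate and no filter on low signals (7 residual degrees of freedom, two-sided, Benjamini-Hochberg over all, threshold 0.05). Gene names came from the platform annotation, with 34945 probe sets naming 1 gene, 932 several and 9160 none. The probe set of a gene with the highest mean stood for that gene. Simulated data with 200 changed probe sets were used to check the script. The members and the gene lists were chosen with earlier results of these data known. Named genes were all members, up to 4 genes a list with the smallest p in the comparison described, and the 8 genes most like the members. Mcam and Hhex are each in 2 lists. Array precision is limited by the number of arrays. Alternatives covered moderation, array weights, normalisation, filters, probe set choice, a replicate block, each array left out and, chosen after seeing the data, control signal and RNA integrity covariates and removal of both arrays at the ends of the first principal component. Figures were drawn with matplotlib 3.10.9. Whether replicate numbers pair the samples is not known. Over 15 pairs with the same number the correlation of deviations from group means was -0.308 to 0.271, and over 30 other pairs -0.449 to 0.361. Deviations of the 2 control STZ arrays mirror each other, so these ranges cannot decide it.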

Additional observations from a re-analysis of the deposited data

Results flagged for a closer look

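Jcad, a protein of endothelial junctions, was marked because its STZ differences ran in opposite directions in the 2 diets. STZ offspring had a lower mean than sham offspring after the control diet (-0.30 ± 0.10) and a higher one after the low protein diet (0.14 ± 0.09). The difference between the 2 effects was 0.445 on the log2 scale (standard error 0.14), with limma's adjusted p at 1 over all probe sets. Its groups did not overlap in either diet, although after the low protein diet the gap was between 6.829 and 6.834. These values are of probe set 1428535_at. It was under the dim limit on all 3 low protein sham arrays and on low protein STZ replicates 1 and 2. The second Jcad probe set, 1438263_at, was under that limit on every array. Its STZ difference was 0.16 ± 0.10 after the control diet and 0.02 ± 0.09 after the low protein diet, with an interaction of -0.14 ± 0.13.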

How the results depend on the processing

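Of 825 values computed under alternatives other than leaving out 1 array, 21 reversed and 4 newly passed the threshold or gained a call. A further 5 medians moved by more than the spread between replicates, and 795 values did none of these. The 4 were Jcad with array weights and the counts of members called that hold the same Jcad calls. The cause was not tested. With the replicate block no call changed, with a median of -0.28 for diet in sham, and for STZ after the control diet Tek (-0.0304), Tie1 (-0.0151) and Plvap (-0.0399) reversed. As it is not known whether the numbers pair the samples (5 of 15 pairs with the same number correlated over 0.1), nothing is drawn from the block. Array weights called 1 member, Jcad, in low protein STZ against control sham (612 probe sets called) and in diet over injections (520 called), and reversed Tek for STZ after the control diet (-0.042).

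With the labelling control covariate the medians were -0.0177 for STZ after low protein, -0.298 for diet in STZ, -0.297 for both exposures and -0.288 for diet over injections. Reversals under it were Tek (-0.095) and Tie1 (-0.0219) for STZ after the control diet, and Cdh5 for diet in sham (0.14), in STZ (0.161) and over injections (0.15). With the hybridisation control covariate Kdr (-0.0261), Flt1 (0.0126) and Cd34 (0.257) reversed for diet in STZ. The RNA integrity covariate reversed Tie1 for STZ after the control diet (-0.0167). Without both arrays at the ends of the first principal component (control sham 1 and low protein STZ 1), Tek was -0.108 for STZ after the control diet, Pecam1 0.00371 and Cdh5 0.0678 for diet in sham, and the median for both exposures -0.286. Averaging probe sets gave Cdh5 0.0156 for diet in sham and 0.00484 over injections. For diet in STZ, Flt1 was 0.0183 with cyclic loess and 0.0472 with quantile normalization, which also gave Kdr 0.00147 over injections.

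With each array left out in turn, the members called were 0 to 1 for diet in sham, for diet over injections and for both exposures. The 1 was Jcad, in refits that called between 263 and 806 of all probe sets. The median ran from -0.265 to -0.175 for both exposures and from 0.00284 to 0.159 for the interaction. The median for STZ over diets ran from -0.042 to 0.000162. Ranges of members that crossed 0 were, for STZ after the control diet, Tek -0.108 to 0.0982, Tie1 -0.0641 to 0.11 and Plvap -0.0517 to 0.193, and after low protein Plvap -0.302 to 0.0417. For diet they were Pecam1 -0.122 to 0.00397 and Cdh5 -0.136 to 0.0678 in sham, and Kdr -0.0309 to 0.0981 and Cdh5 -0.162 to 0.0174 in STZ. No depth or signal over background is held in these values.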

Other observations

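Exactly equal deposited values recurred across arrays. Of the 15 member probe sets 8 (53.3%) had the same value on at least 2 arrays, beside 25174 of 45037 probe sets (55.9%). Pecam1 stood at 7.723 on 4 arrays and Emcn at 8.292 on 3.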
